A study of Arabidopsis thaliana and Zea mays subsp. mays with 14 samples.

Results

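The 9 genes described here encode canonical and variant histone H3 proteins of Arabidopsis thaliana, and were chosen by locus from 27444 protein-coding genes on the 5 nuclear chromosomes. HTR1 (AT5G65360), HTR2 (AT1G09200), HTR3 (AT3G27360), HTR9 (AT5G10400) and HTR13 (AT5G10390) encode H3.1. HTR4 (AT4G40030), HTR5 (AT4G40040) and HTR8 (AT5G10980) encode H3.3, and CENH3 (AT1G01370, also named HTR12) encodes the centromeric H3. All 9 loci were found in the annotation, and all 9 passed the filter for testing.

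Histone H3 pairs with H4 at the core of the nucleosome. H3.1 is made in S phase and is placed on newly copied DNA by the chaperone complex CAF-1, while H3.3 is made throughout the cell cycle and is placed on DNA outside replication, often over transcribed genes and their ends. CENH3 replaces H3 in centromeric nucleosomes and marks where the kinetochore forms. Dividing cells of a seedling lie mostly in the meristems of root and shoot and in young leaves, so tissues differ in how many of their nuclei replicate DNA.

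The assay was ATAC-seq, which uses Tn5 transposase to cut and tag DNA that is not packed away in nucleosomes, and 10 libraries in 5 groups of 2 were read out. The plants were 7 days old and, in every group, of the Col-0 background, grown with 16 hours of light and 8 hours of dark. The groups were 50000 nuclei from roots of wild-type plants, 500 nuclei from wild-type whole seedlings, 50000 nuclei from wild-type whole seedlings labelled crude, 50000 nuclei from whole seedlings of a 35S:H2AX-GFP transgenic line, and 50000 sorted nuclei from wild-type whole seedlings. The 35S promoter drives its transgene in most cell types, and the labels do not say how many lines were used, how many plants were pooled, or whether replicates were grown apart. The protocol names nuclei sorting for every sample, so it is not known how the crude nuclei were prepared. P-values therefore cover only the spread among these 10 libraries, part of which may be technical. A whole seedling or root holds many cell types, and an open site in fewer nuclei cannot be told apart from a weaker opening in each of them.

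The authors called open regions separately in each library, between 22138 and 29309 of them, covering 13.78 to 24.61 Mb. The lists hold no read counts, so the depth behind a region is unknown. The measure used below, covered bases, is the number of bases inside called regions from 1000 bases outside to 200 bases inside both annotated ends of a gene, at most 2400. All 9 genes have a window of the same size, so levels can be set beside each other. The tissue labels were checked on marker genes. Summed over 7 shoot markers, covered bases were 2997 and 1901 in the root libraries and 10417 to 14021 in the 8 seedling libraries, with 3 shoot markers at 0 in each root library and none at 0 in any seedling library. Summed over 9 root markers they were 10788 and 9135 in roots and 2490 to 7037 in seedlings. Not every marker separated the tissues. CASP1 had 582 and 429 bases in roots and 157 to 966 in seedlings, and COBL9 337 and 544 against 0 to 834. EXPA7 (983 and 519 against 0 to 630) and the shoot marker RBCS1A (2235 and 1270 against 1910 to 2400) also overlapped. The marker lists were chosen with earlier results of these data known, so this is a weak check.

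Open chromatin at the H3 genes lay at gene ends, and at most of them at 1 end only. The annotation table holds no strand, so the ends are named by coordinate and not as start or stop. The base at the higher-coordinate end lay inside a called region in all 10 libraries for HTR1, HTR2, HTR3, HTR4, HTR5 and HTR8, in 8 for CENH3, in 7 for HTR9 and in 6 for HTR13. The lower-coordinate end was covered in 10 libraries for HTR5, 9 for HTR3, 8 for HTR8, 4 for CENH3 and none for the other genes. In HTR1, HTR2, HTR4 and HTR13 the whole 1200-base window around that end held no covered base in any library. Of all 27444 protein-coding genes, 37.01% had at least 1 end covered in all 10 libraries, and 4.55% had both.

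The stretches shared by the most libraries are given here in TAIR10 coordinates, because they show which DNA is open at each gene and which neighbour shares it. At HTR1, chr5:26120499-26121025 was open in all 10 libraries and covered the gene's higher end and no other annotated end. At HTR2, chr1:2972185-2972706 was open in 10 libraries. It covered the higher end of HTR2 and also the lower end of CRT1b, a calreticulin gene 303 bases away, so that opening cannot be assigned to either gene. HTR3 had a stretch of 10 libraries at its higher end, chr3:10129857-10130320, which lies within the annotated span of SDH2-1, a gene for a subunit of succinate dehydrogenase that overlaps HTR3 by 328 bases. A second one at HTR3, chr3:10128105-10128854, begins at the edge of the window and holds the higher ends of the neighbours AT3G27350 and AT3G27355.

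HTR9 and HTR13 are neighbours 577 bases apart, and their windows share 977 bases. Beyond the higher end of HTR9, chr5:3271013-3271119 was open in 10 libraries. Between the 2 genes, chr5:3269627-3269813 was open in 9 libraries, beyond the higher end of HTR13. Every covered base of HTR13 came from this opening, which is also all that HTR9 had at its lower end. The H3.3 genes HTR4 and HTR5 are also neighbours, 42 bases apart. Their common opening, chr4:18556883-18557178, covered the higher end of HTR4 and the lower end of HTR5 in all 10 libraries. Every covered base of HTR4 came from regions at this opening, which cannot be assigned to either gene. HTR5 had another at its higher end, chr4:18558638-18559248, which holds the lower end of AT4G40042 too. HTR8 was open in 10 libraries at chr5:3473303-3473924, over its higher end, and at chr5:3472027-3472316, which ends 89 bases outside its lower end and holds the higher end of the long non-coding RNA gene AT5G10965. CENH3 was open in at most 8 libraries, at chr1:146282-146550 over its higher end.

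**Figure D1:**
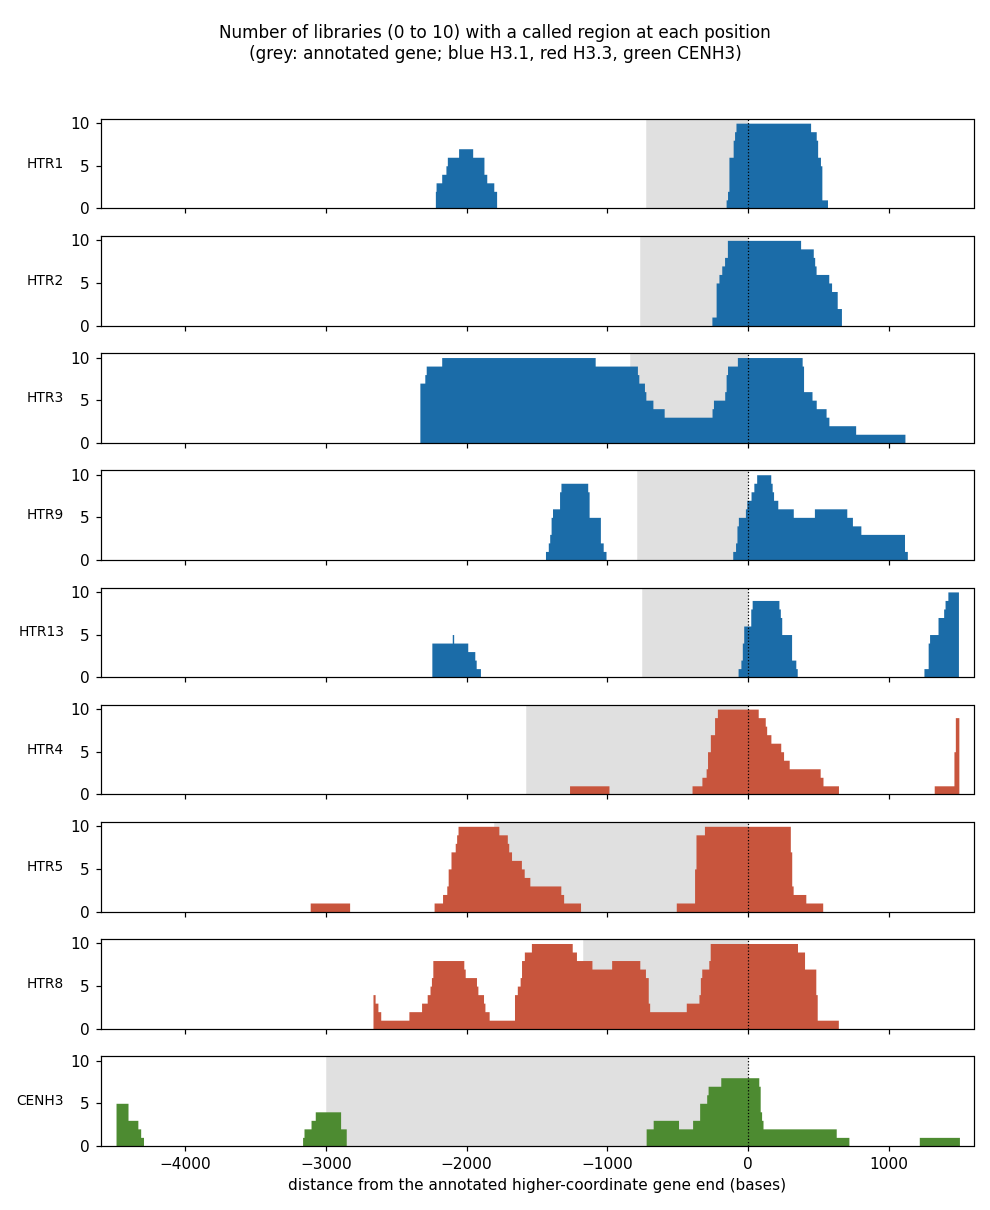
Number of libraries, of 10, with a called region at each position around the 9 genes, against the distance in bases from the annotated higher-coordinate end; the annotated gene is grey and positions up to 1500 bases beyond either end were counted. HTR1, HTR2 and HTR4 are open in all 10 libraries at the higher end and not at the lower one, HTR5 is open at both, and CENH3 reaches 8 libraries.

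Among the H3.1 genes, HTR1 had the smallest spread of all 9 genes. It had 697 and 631 covered bases in roots, 620 and 527 with 500 nuclei, 653 and 662 in crude nuclei and 655 and 590 in the H2AX-GFP line, against 655 and 631 in sorted seedlings. HTR2 had 861 and 657 in roots, 737 and 523 with 500 nuclei, 831 and 776 in crude nuclei and 864 and 651 in H2AX-GFP, against 830 and 676 in sorted seedlings. For both genes the lowest library was replicate 2 of the 500 nuclei, and the root values overlapped those of the sorted seedlings.

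HTR3 was the H3 gene with the most covered bases, and most of them lay at its lower end. The window of 1200 bases there held a median of 1132.5, in regions that also covered ends of AT3G27350 and AT3G27355. At the higher end the median of HTR3 was 648.5 bases, against 756.5 for HTR2 and 681 for HTR8. Over both ends HTR3 had 1854 and 1800 in roots, 1598 and 1735 with 500 nuclei, 1341 and 2023 in crude nuclei and 1750 and 2400 in H2AX-GFP, against 1751 and 1852 in sorted seedlings. H2AX-GFP replicate 2 covered the whole window, and the crude libraries lay on either side of both root values.

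HTR9 and HTR13, the neighbouring H3.1 pair, had low or uneven values. HTR9 had 1414 and 650 bases in roots, 1102 and 171 with 500 nuclei, 460 and 848 in crude nuclei and 1493 and 313 in H2AX-GFP, against 1436 and 1033 in sorted seedlings. HTR13 had 342 and 187 in roots, 218 and 0 with 500 nuclei, 270 and 411 in crude nuclei and 408 and 206 in H2AX-GFP, against 349 and 355 in sorted seedlings. At HTR9, 5 libraries were above 1000 bases and 3 below 500, and the replicates with 500 nuclei and those of the H2AX-GFP line fell on either side of that gap. The highest were replicate 1 of roots, of H2AX-GFP and of sorted seedlings. Only in these did the region at the higher end also cover the lower end of the neighbour AT5G10410. Replicate 1 was above replicate 2 in 4 of the 5 groups at HTR9, and in 5 of 5 at HTR2 and CENH3. The 0 of HTR13 means that no region was called there in replicate 2 of the 500 nuclei.

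Among the H3.3 genes, HTR5 was the steadiest. It had 1242 and 1018 bases in roots, 861 and 876 with 500 nuclei, 1131 and 966 in crude nuclei and 1056 and 982 in H2AX-GFP, against 1025 and 1021 in sorted seedlings. HTR4, its neighbour, had 844 and 446 in roots, 334 and 324 with 500 nuclei, 272 and 360 in crude nuclei and 490 and 732 in H2AX-GFP, against 431 and 712 in sorted seedlings. Both libraries with 500 nuclei and both crude libraries were lower at HTR4 than every root, H2AX-GFP and sorted seedling library. How many of all genes show this order was not counted. The regions behind these HTR4 values all covered the lower end of HTR5 too.

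HTR8, the most covered of the H3.3 genes, had 1332 and 925 bases in roots, 1259 and 1128 with 500 nuclei, 1663 and 1674 in crude nuclei and 1852 and 1576 in H2AX-GFP, against 1511 and 1888 in sorted seedlings. Both root libraries and both libraries with 500 nuclei lay below the other 6, and root replicate 2 was the lowest of all. The share of all genes with such an order was not counted. CENH3 had 913 and 269 in roots, 290 and 0 with 500 nuclei, 597 and 498 in crude nuclei and 1125 and 0 in H2AX-GFP, against 477 and 283 in sorted seedlings. No region was called in its window in 2 libraries of 2 different groups, and its highest library belonged to one of those groups, so the H2AX-GFP pair alone spans the whole range. In root replicate 1 and H2AX-GFP replicate 1, the highest libraries of CENH3, the region at its higher end also covered the lower end of ETC1. That gene lies 563 bases away, and no other library had this.

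**Figure D2:**
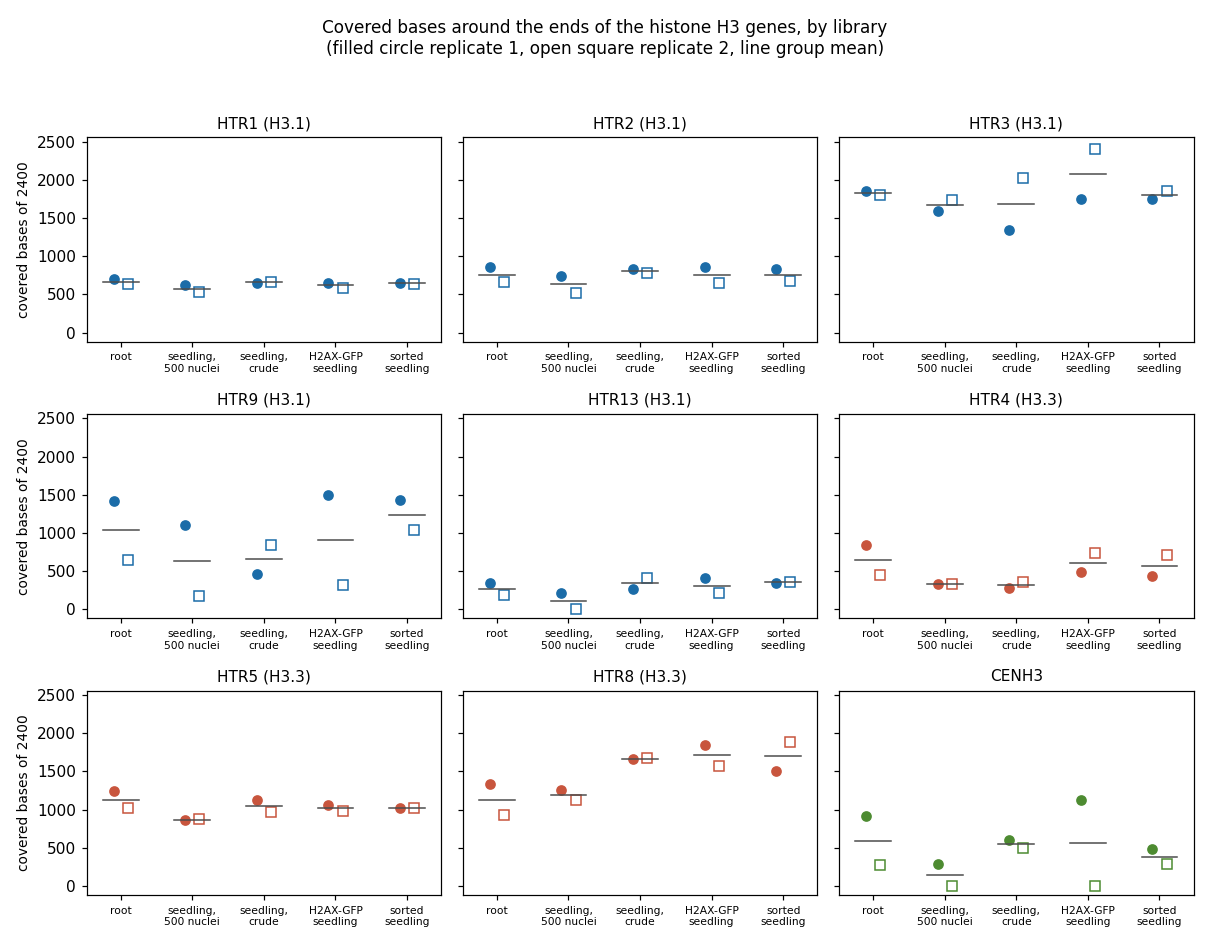
Covered bases of 2400 (vertical axis) for each of the 9 genes in roots, 500 nuclei, crude nuclei, H2AX-GFP and sorted seedlings, left to right; filled circles are replicate 1, open squares replicate 2 and lines the mean of the group. HTR1 stays between 527 and 697 bases, HTR9 spans 171 to 1493, and CENH3 is at 0 in 2 libraries.

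Averaged over the 10 libraries (SD, n = 10), the order was HTR3 with 1810 ± 274 bases, HTR8 with 1481 ± 314, HTR5 with 1018 ± 112, HTR9 with 892.0 ± 483, HTR2 with 741 ± 112, HTR1 with 632 ± 46.6, HTR4 with 494 ± 198, CENH3 with 445 ± 363 and HTR13 with 275 ± 126. The gap from HTR3 to HTR8 and that from HTR8 to HTR5 were larger than the larger SD of the pair. The other neighbours in this order differed by less than that SD. The first place of HTR3 rests on its lower end, where its regions also covered ends of AT3G27350 and AT3G27355. Over all protein-coding genes the median of the same mean was 603.2 bases, so 6 of the 9 lay above it.

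The mean of the 5 H3.1 genes was 870 ± 146 bases and that of the 3 H3.3 genes 998 ± 154 (SD, n = 10 libraries). Both means count some bases more than once. The windows of HTR9 and HTR13 share 977 bases, and those of HTR4 and HTR5 share 442. Openings shared with other genes, such as CRT1b and AT4G40042, also enter the means. As a share of the window, H3.1 minus H3.3 was -5.32 ± 5.42 percentage points, with H3.1 higher in 2 of 10 libraries. With only the better-scoring 50% of regions of each library the difference turned round, to 3.06 points. The spread among the genes of a class was wider than the gap between classes, since H3.1 holds both the highest and the lowest gene of all 9.

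The score the authors gave each region was used only as a rank within a library, counted from the best at 0%. For ranks, the window also took in the whole gene body between the 2 ends. The best region in the window of HTR3 ranked between 3.9% and 10.3%, with a median of 5.3%. HTR8 had a median rank of 6.55% and HTR5 of 11.35%, followed by HTR2 at 18.75% and HTR1 at 26.95%. These 5 genes had regions of higher rank than the median of the protein-coding genes with a region, at 36.3%. The other 4 did not: CENH3 had a median rank of 53.75% over 8 libraries, HTR4 of 54.4% and HTR9 of 54.9% over 10, and HTR13 of 64.2% over 9. The best rank of any H3 gene in any library was 2.0%, for HTR5 in crude replicate 1. HTR9 had more covered bases than HTR2 in 6 of 10 libraries, with means of 892.0 and 740.6. The rank of HTR9 was lower than that of HTR2 in every library.

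**Figure D3:**
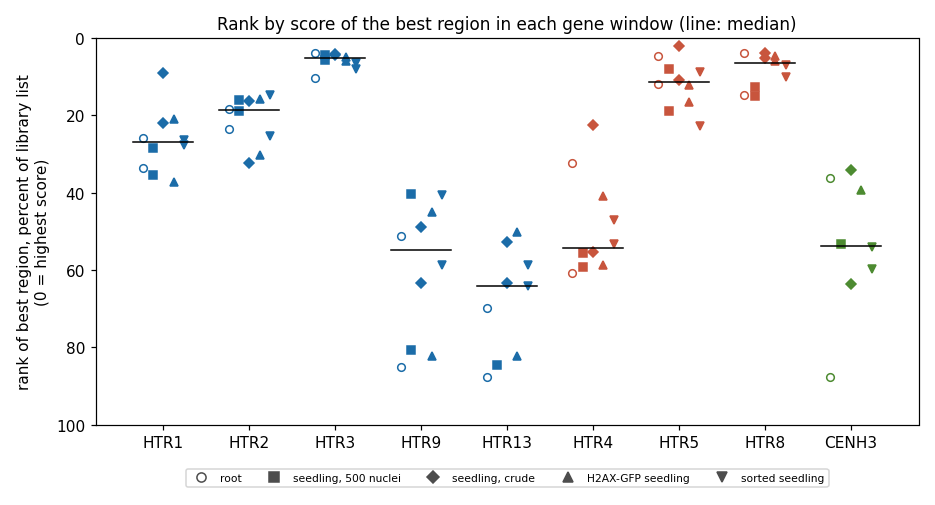
Rank of the best region in each gene's window, gene body included, as a percentage of the region list of that library. On the vertical axis, 0 at the top is the highest score. There is 1 point per library, with group symbols as in the legend, and the line is the median. HTR3, HTR5 and HTR8 lie between 2.0% and 22.8%, and HTR9, HTR13, HTR4 and CENH3 lie mostly below the middle of the lists.

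Roots were compared with sorted seedlings to ask whether open chromatin at the H3 genes differs between tissues. No H3 gene passed the test. With limma, and a threshold of 0.05 on the adjusted p, 0 of the 9 were called, against 0.682% of all 23893 genes tested. At an unadjusted p under 0.05 there was 1 of 9 H3 genes and 2565 of all tested genes. The median difference was 21 bases over the H3 genes and -83 over all tested genes. Of the 9, 6 were higher in roots, as were 7303 of 23893 tested genes. All 6 were lower in roots when root replicate 1 was left out, so that count rests on 1 library.

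HTR8 had the smallest p of the 9. It averaged 1128 ± 288 bases in roots and 1700 ± 267 in sorted seedlings (SD, n = 2 each). The difference was -571 bases (SE 212, 95% interval -1068 to -73.9, limma, unadjusted p = 0.0297, adjusted p = 0.367). Of the 2 ends, the lower one held most of it, with 640 and 326 bases in roots against 831 and 1200 in sorted seedlings. At the higher end there were 692 and 599 bases in roots and 680 and 688 in sorted seedlings, which overlap. Against the mean of the 4 seedling groups the difference of HTR8 was -440 bases (SE 168, limma, adjusted p = 0.291). Root replicate 1, with 1332 bases, lay above both libraries with 500 nuclei.

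A stretch at HTR8 was open in all 8 seedling libraries and in neither root library. It spans chr5:3471334-3471553, between 1071 and 852 bases outside the lower end of HTR8 and inside the annotated span of AT5G10965, so the window of HTR8 holds only a piece of it. Such stretches were looked for within 1500 bases of each of the 9 genes after the values had been seen, and HTR8 was the only one of the 9 with any. Genome-wide, 6.47% of the bases open in all 8 seedling libraries were open in neither root library. This is a share of bases, and the share of genes with such a stretch was not counted. Bases open in all 8 seedling libraries numbered 1554 at HTR3, 1183 at HTR8, 907 at HTR5, 527 at HTR1 and 522 at HTR2. They numbered 296 at HTR4, 107 at HTR9, 82 at HTR13 and 0 at CENH3. Of these, only 220, at HTR8, were open in neither root library. The converse, open in both root libraries and in no seedling library, was found at none of the 9 genes. Genome-wide, 2.15% of the bases open in both root libraries were of this kind, again a share of bases and not of genes.

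The intervals of the other differences were wide. CENH3 averaged 591 ± 455 bases in roots and 380.0 ± 137 in sorted seedlings (SD, n = 2 each), a difference of 211 bases with an interval of -637 to 1059. Its 913 bases in root replicate 1 came from a region that also covered the lower end of ETC1. For HTR9 the difference was -202 bases (interval -1319 to 914), and for HTR1, the narrowest, 21 bases (interval -243 to 285). For HTR5, HTR4 and HTR3 the differences were 107, 73.5 and 25.5 bases, for HTR2 6 bases and for HTR13 -87.5. When each library in turn was left out, the sign changed for 7 of the 9 genes, all but HTR8 and HTR13. It changed without root replicate 1 for HTR1, HTR2, HTR3, HTR4, HTR5 and CENH3 and without root replicate 2 for HTR9. It also changed without sorted seedling replicate 1 for HTR3 and HTR4, and without sorted seedling replicate 2 for HTR2. Against the mean of the 4 seedling groups 0 of the 9 genes were called, against 2.01% of all genes tested, and at an unadjusted p under 0.05 there was again 1, HTR8.

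**Figure D4:**
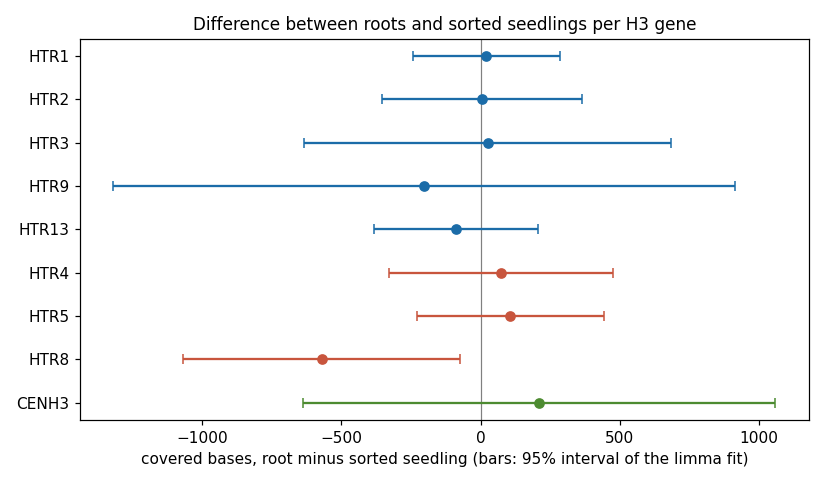
Covered bases in roots minus sorted seedlings (horizontal axis) for the 9 genes, with the 95% interval of the limma fit over all tested genes. The interval of HTR8, -1068 to -73.9, lies below 0 before adjustment over all genes, and those of the other 8 genes include 0.

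The number of nuclei was compared next. With 500 nuclei all 9 H3 genes had fewer covered bases than with 50000 sorted nuclei, with a median difference of -235 bases. This was also the case for 22535 of 23893 tested genes, with a median difference of -211.5. Of the 9 genes, 0 were called with limma (0% of all genes tested), and 1 had an unadjusted p under 0.05, as did 1778 of all genes. That gene was HTR8, with a difference of -506 bases (interval -1003 to -8.9, limma, unadjusted p = 0.0469, adjusted p = 0.664). The libraries with 500 nuclei also had less covered length in all, 15.77 and 13.9 Mb against 22.4 and 21.0 Mb in sorted seedlings, and its part in the lower values was not tested.

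Crude nuclei were compared with sorted nuclei. Of the 9 genes, 0 were called with limma (0% of all genes tested) and 0 had an unadjusted p under 0.05, against 2264 of all genes. The median difference was -11.5 bases over the H3 genes and -138 over all tested genes. The 2 with the smallest p were HTR4, at 316 ± 62.2 bases in crude nuclei and 572 ± 199 in sorted seedlings (limma, adjusted p = 0.667), and HTR9, at 654 ± 274 and 1234 ± 285 (limma, adjusted p = 0.716; SD, n = 2 each). The differences were -255.5 bases (interval -657 to 146) and -580.5 (interval -1697 to 536).

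In the 35S:H2AX-GFP line 0 of the 9 H3 genes were called with limma (0% of all genes tested), and 0 had an unadjusted p under 0.05, against 759 of all genes. The median difference was 4.5 bases over the H3 genes and 23.5 over all genes. The largest difference was at HTR9, with 903.0 ± 834 bases in H2AX-GFP and 1234 ± 285 in sorted seedlings (limma, difference -331.5, adjusted p = 1). It was 258.5 without H2AX-GFP replicate 2. HTR3 had the largest positive difference, with 2075 ± 460 bases in H2AX-GFP and 1802 ± 71.4 in sorted seedlings (SD, n = 2 each; limma, difference 273.5, adjusted p = 1). It was -51.5 without H2AX-GFP replicate 2, and in this comparison the sign changed for all 9 genes when some library was left out. All 5 comparisons use the same 2 sorted seedling libraries, alone or among the 8 seedling libraries, and both root comparisons use the same root libraries, so they are not independent.

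The H3 genes were set beside the other histone genes. By the mean over 10 libraries, the median gene had 740.6 covered bases among the 9 H3 genes, 595.9 among 5 further H3 genes, 1399.5 among 8 H4 genes, 942.1 among 13 H2A genes, 1000.3 among 11 H2B genes and 247.0 among 3 H1 genes. Openings in all 10 libraries were found for 7 of the 9 H3 genes (77.78%) and for 59.38% of all protein-coding genes. The count was 8 of 8 for H4, 10 of 11 for H2B and 10 of 13 for H2A. For the further H3 genes it was 3 of 5 and for H1 2 of 3. The median best rank was 8.3% for H2B, 10.7% for H4, the partner of H3 in the nucleosome, and 13.5% for H2A. It was 26.9% for the 9 H3 genes, 37.8% for the further H3 genes and 50.1% for H1. Of the further H3 genes, HTR6 averaged 1158 ± 358 bases, HTR10, an H3 gene of sperm cells, 691 ± 369, and HTR11, 33 bases from HTR1, 596 ± 187. HTR14 averaged 389 ± 316 and HTR15 111 ± 123 (SD, n = 10 each). HTR14 was at 0 in 2 libraries and HTR15 in 5. The window of HTR11 overlaps that of HTR1 and takes in part of the HTR1 opening. In replicate 2 of roots, of the 500 nuclei and of H2AX-GFP, all of its 381, 327 and 352 bases lay there. HTR11 is the median of the further H3 genes and 1 of the 3 open in all libraries. Both values thus rest partly on the HTR1 opening.

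None of the 5 further H3 genes or of the H4, H2A, H2B and H1 genes was called between roots and sorted seedlings with limma. The same held in the other comparisons. Between roots and sorted seedlings, 0 of the further H3, H4, H2B and H1 genes and 2 of the 12 tested H2A genes had an unadjusted p under 0.05, and the smallest adjusted p among H2A genes was 0.104. These 2 were HTA1, with 454 and 438 bases in roots against 1200 and 1200 in sorted seedlings, and HTA2, with 737 and 655 against 1200 and 1200. They are named here after their values were seen.

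Chaperones and enzymes that act on H3 were also read out. The list holds the CAF-1 subunits FAS1, FAS2 and MSI1, the H3.3 chaperone HIRA with its partners, and ASF1A and ASF1B. It also holds the CENH3 loading factor KNL2, CENP-C, the H3.1 methyltransferases ATXR5 and ATXR6, and ATRX, NASP and TSK. Of 15 tested genes of this list 0 passed the test between roots and sorted seedlings, and all 15 had fewer covered bases in roots, as did 16188 of 23893 tested genes. The median difference was -200 bases, against -83 over all tested genes. At an unadjusted p under 0.05 there were 2, named here after their values were seen. FAS1 had 476 and 687 bases in roots against 970 and 955 in sorted seedlings, and ATXR6 had 783 and 656 against 1045 and 1181. Against the mean of the 4 seedling groups 10 of the 15 were lower and 5 higher, with a median of -68.4 bases, and 13337 of all tested genes were lower. Levels differed widely within the list. HIRA averaged 2108 ± 344 bases and FAS2 1054 ± 352, while MSI1 averaged 310 ± 107 (SD, n = 10). The lowest were KNL2, with 54.7 ± 101.1 bases, and ATRX, which had no covered base in any library and was not tested.

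S phase genes, the group with which H3.1 is made, gave no call either. Of 12 genes, 0 passed the test between roots and sorted seedlings and 9 had fewer covered bases in roots, as did 16188 of 23893 tested genes. The median difference was -166 bases, against -83 over all tested genes. Against the mean of the 4 seedling groups 7 of the 12 were lower and 5 higher. E2FA, a transcription factor of S phase entry, had no covered base in either root library and 612 and 600 in sorted seedlings (limma, adjusted p = 0.21). Its 8 seedling values ran from 309 to 731 bases. Between roots and sorted seedlings E2FA was the 1 gene of the list with an unadjusted p under 0.05. Against the 4 groups there were 2, E2FA and MCM5 (limma, unadjusted p = 0.0263). MCM5 and PCNA1 also had no covered base in either root library, but both were at 0 in some seedling libraries too. These genes are named after their values were seen. No H3.1 gene had a gap between its root and seedling libraries like that of E2FA.

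Genes whose covered bases were most like those of the H3 genes over the 10 libraries were found by the smallest mean absolute difference among 23867 tested genes with no window shared with an H3 gene. For the mean of the H3.1 genes these were UGT76C1 at 25.2 bases, AT3G50030 at 45.5 and CLPX at 48.5. For the mean of the H3.3 genes they were AT1G15010 at 54.1 bases, KICP-02 at 62.9 and RAN-1 at 65.0. For CENH3 they were SETH6 at 82.2 bases and AT3G14190 at 93.9, and then CYL1. The measure takes in both level and pattern, and all 10 points share their library's covered length.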

How the data were processed

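The members and gene lists were chosen with earlier results of these data known. The authors deposited, per library, a list of region positions with a score per region, on TAIR10 per the submitters' processing notes. No source used here defines the score or names the region caller, so within each library it gave an order of regions and nothing else. Genes came from RefSeq TAIR10.1 and were joined by position. As a check, gene ends were covered more often than points 5000 bases off in 112 of 112 bins of 1 Mb. The table holds neither strand nor exons, and no sequence was used here. Of 14 samples, 4 had no list and were not analysed here, both genomic DNA samples among them.

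In R 4.3.3, the limma package (3.58.1) fitted covered bases in all 10 libraries at once (lmFit, then eBayes, trend and robust on), over 23893 genes covered in at least 2 libraries, at a Benjamini-Hochberg adjusted p under 0.05. The fit was tested on simulated data. Named were all 9 genes, further H3 genes by level, called genes of the other histone, chaperone and S phase lists (none), and the 3 nearest genes per profile. Alternatives were other windows, region sets, scalings, fits and filters, leaving out single libraries, and a replicate block. Python 3.11.15 with numpy 2.4.6, pandas 2.3.3 and matplotlib 3.10.9 was used. Same-numbered libraries were not treated as pairs, since not all groups deviated together.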

Additional observations from a re-analysis of the deposited data

How the results depend on the processing

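No H3 gene was called in any of the 5 comparisons under any of 23 alternatives per comparison; the lowest adjusted p (limma) was 0.195, for HTR8 in roots against the mean of the 4 seedling groups with quantile normalization. The difference of HTR8 between roots and sorted seedlings stayed negative in all, from -774.5 to -122.5 bases. Against the 4 groups it was 59.4 with the better-scoring 50% of regions. With 2000-base windows HTR1 was at -346 bases, and with 500-base windows HTR2 at -9.5. Within the gene span alone HTR2 was at -1.5 and CENH3 at -319.5, and with quantile normalization HTR13 was at 36.9. Leaving out 1 library at a time gave -12 to 54 bases for HTR1, -96 to 108 for HTR2, -25 to 76 for HTR3, -584.5 to 179.5 for HTR9, -125.5 to 272.5 for HTR4, -5 to 219 for HTR5 and -111 to 533 for CENH3. HTR1, HTR2, HTR3, HTR4, HTR5 and CENH3 were negative without root replicate 1, HTR3 and HTR4 also without sorted seedling replicate 1 and HTR2 without sorted seedling replicate 2. HTR9 was positive without root replicate 2. H3.1 minus H3.3 was -17.25 points with 500-base windows, -18.47 within the gene span and 3.06 with the better-scoring 50%, where root replicate 2 and H2AX-GFP replicate 2 had 5 H3 genes covered.

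The count of all genes called, which is the background here, depended on the setting. For roots against sorted seedlings it was 163, and 311 with 500-base and 47 with 2000-base windows, 482 with the better-scoring 50%, 280 with equal numbers of regions, 269 with quantile normalization, 46 after division by covered length, 277 without a filter, 0 when the fit held just those 2 groups, 254 without trend and robust, 78 with a replicate block, and 0 to 205 without 1 library. Against the 4 groups it was 481, and 770, 730, 1101 and 831 with the better-scoring 50%, equal numbers, quantile normalization and division, and 0 to 520 without 1 library. For 500 nuclei it was 13 without a filter. For crude nuclei it was 38 with the better-scoring 50% and 22 without a filter. For H2AX-GFP it was 19 within the gene span, 27 with the better-scoring 50%, 2 with equal numbers, 32 without a filter and 0 to 184 without 1 library. The cause was not tested. Deviations of same-numbered libraries of 2 groups correlated between -0.22 and 0.514, over 0.1 in 4 of 10 pairs of groups and highest between 500 nuclei and sorted seedlings, so libraries were not taken as paired throughout. The replicate block called no H3 gene. With 2 libraries a group and no read counts, small differences at these genes cannot be resolved.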
